A study of Mus musculus with 2 samples.

Results

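The elastic fibre genes are 9 genes whose products build the stretchable fibres of the arterial wall: Eln, Fbn1, Mfap4, Mfap5, Fbln1, Fbln2, Fbln5, Emilin1 and Lox. They were chosen by name, and all 9 are among the 14714 genes of the deposited table. Single-cell RNA sequencing captured them in cells of digested mouse aortas, with 1 library per genotype. The first library came from EC-iDKO/Apoe KO mice, which carry an inducible endothelial double knockout together with loss of Apoe, and is called the double knockout below. The second came from Apoe KO mice. Both therefore lack Apoe, the lipoprotein ligand whose loss raises plasma cholesterol, and both were kept on a western diet for 12 weeks. From knowledge of the line, the genes removed in endothelium are those of the epsins, Epn1 and Epn2, which help clathrin take up membrane receptors. The sources used here do not give the Cre driver, whether the Apoe KO mice carried floxed alleles, how many mice were pooled per library or how old they were. The preparation used a digestion mix that lists elastin among its components, a droplet kit that tags 3' ends, and CD31 microbeads, although the label for the cells reads all cells.

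An elastic fibre has an amorphous core of crosslinked elastin laid on a scaffold of fibrillin microfibrils. Fibulins and emilin join the core to the scaffold and to the cell surface, and lysyl oxidase crosslinks elastin monomers into a lasting polymer. In the aorta, smooth muscle cells lay down most of the elastin of the lamellae early in life, while adventitial fibroblasts and endothelial cells add some of the associated proteins. The digestion removes the fibres themselves, so the values below are of RNA only.

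After each barcode was counted once, the table held 5489 double knockout cells with 6853185 unique molecular identifiers (UMIs, each 1 captured RNA molecule) and 2428 Apoe KO cells with 13304762 UMIs. The median cell held 769 UMIs in the double knockout and 3769.5 in the Apoe KO, and 34.0% against 94.6% of cells reached 1000 UMIs. The libraries shared 5 barcodes, and the median mitochondrial share was 3.99% in the double knockout and 4.80% in the Apoe KO. Epn1 had 6 UMIs in the double knockout and 14 in the Apoe KO within the cells deposited as EC, at a ratio of 0.399 (95% interval 0.126 to 1.11), and Epn2 had 32 and 23, at 1.30 (0.735 to 2.32). Epn2 was thus not lower in the double knockout beyond counting error, with a ratio below 0.735 outside the interval, and it stood at 112 and 81.5 CPM in smooth muscle cells. The kit tags 3' ends and the sources used here do not say which exons were removed, so these counts do not check the deletion, and the genotypes below are those of the labels. Since 1 library stands for each genotype, cells are not replicates and no p-value was computed: every ratio below is double knockout over Apoe KO in UMIs per 1000000 UMIs of the population (CPM), with a 95% interval that covers counting error only, not the spread between mice or preparations.

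The cells are grouped by the class names and cluster numbers that the authors deposited (SMC, modEC, EC, fibroblast and immune/inflam), and these names were set against marker genes. SMC cells without cluster 15 numbered 4348 in the double knockout and 1516 in the Apoe KO, and 9 contractile markers summed to 56086 and 53874 CPM there. Cells named modEC held few endothelial transcripts: 12 endothelial markers summed to 304 and 157 CPM in modEC cluster 8, against 133 and 129.7 CPM in SMC and 4693 and 2742 CPM in EC cluster 9. In EC cluster 9 the contractile markers still summed to 30906 CPM in the double knockout and 32935 CPM in the Apoe KO. The class named fibroblast held 55 and 99 cells. Its 10 fibroblast markers summed to 1339 CPM in the double knockout and 1571 CPM in the Apoe KO, against 692 and 791 CPM in SMC, but Pi16 and Clec3b of that list had 0 UMIs there in the double knockout. Gsn alone gave 744 and 477 CPM of these sums in the class. Of the contractile markers, this class held Acta2 at 8570.3 and 9367 CPM and Tagln at 7780.2 and 6489 CPM. Its 6 pericyte markers summed to 2547 and 4870.1 CPM, against 2047 and 2919 CPM in SMC, with Rgs5 as the most abundant, so the deposited name is kept below without a claim that these are fibroblasts. Immune/inflam cluster 13, with 53 and 144 cells, served as a background for RNA of other cell types. Its 11 macrophage markers summed to 5777 CPM in the double knockout and 22589 CPM in the Apoe KO, while its contractile markers summed to 38572 and 13714 CPM, so in the double knockout that cluster carried more RNA of smooth muscle genes than of its own markers. Whether that RNA was free in the suspension or came from doublets or other cells in the cluster was not tested.

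A gene was called higher or lower where its ratio was at least 1.5 in either direction, the interval did not hold 1, and both libraries together gave at least 100 UMIs. Over the whole libraries, 0 of the 9 members were called higher and 3 lower (Eln, Fbln1 and Lox), while the same rule called 9.13% of 10122 genes higher and 10.1% lower. In SMC, 8 members reached 100 UMIs, of which 1 was called higher (Fbln2, against 9.37% of 8924 genes) and 1 lower (Eln, against 6.56%). The median log2 ratio of the members was -0.14 over the whole libraries, where all genes stood at 0.02, and -0.08 in SMC, where all genes stood at 0.03. In modEC cluster 8 all 9 members reached 100 UMIs, with 2 called higher (Fbln2 and Mfap5, against 11.4% of 2680 genes) and 3 lower (Eln, Fbln5 and Lox, against 10.9%). The fibroblast class gave 0 higher (11.8% of 1038 genes) and 3 lower of 7 members (Eln, Fbln1 and Fbln5, against 14.8%), and its members' median log2 ratio was -0.53 against -0.04 for all genes. In modEC cluster 10, 1 of 6 was called higher (Mfap4, against 14.2% of 910 genes) and 1 lower (Eln, against 13.8%), and in EC cluster 9, 1 of 6 was called higher (Mfap5, against 12.8% of 776 genes) and 0 lower (14.6%). The 9 genes thus did not shift as one block, and Eln was the member called lower in 5 of these 6 populations.

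**Figure D1:**
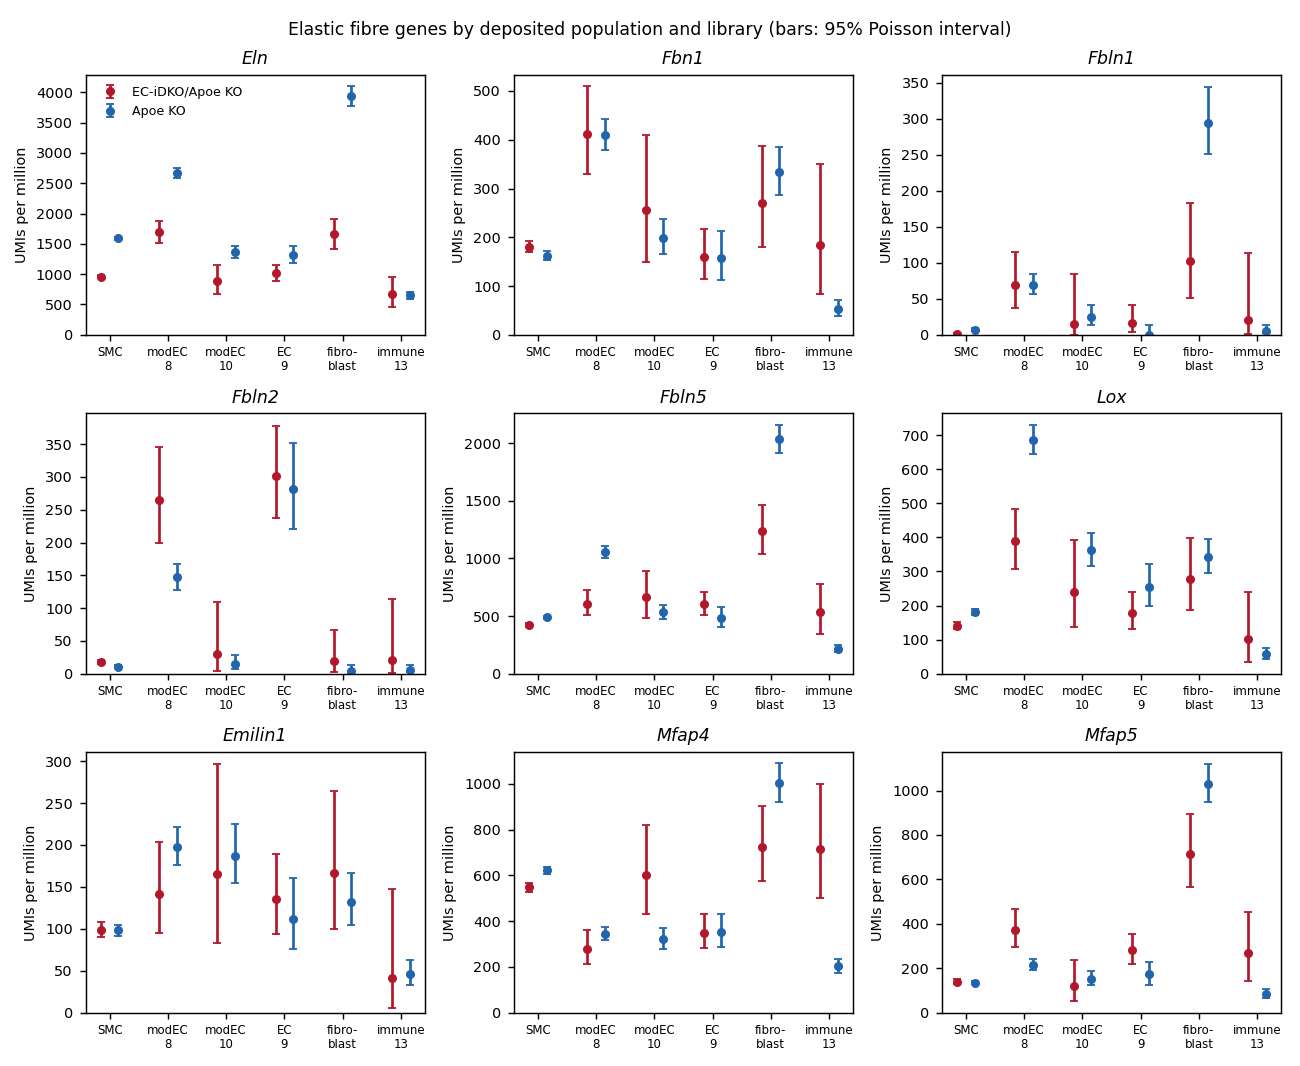
Level of each elastic fibre gene (vertical axes, CPM of the population, with a scale for each gene) in 6 populations of the deposited annotation, with the EC-iDKO/Apoe KO library left of the Apoe KO library and bars for the 95% Poisson interval, which covers counting error only. Eln stood lower in the double knockout in SMC, both modEC clusters, EC cluster 9 and the class deposited as fibroblast, while Fbln2 was high in EC cluster 9 and modEC cluster 8 in both libraries.

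Eln (chr5:134702593-134747323, minus strand, GRCm38) encodes tropoelastin, the monomer of the elastic core. Over the whole libraries it had 6863 UMIs, or 1001 CPM, in the double knockout, against 24191 UMIs, or 1818 CPM, in the Apoe KO. The ratio was 0.551 (0.536 to 0.566). In SMC the level was 956 CPM in the double knockout and 1589 CPM in the Apoe KO, a ratio of 0.602 (0.583 to 0.621), or 1.66-fold lower. The gap was widest in the fibroblast class among these 6 populations, at 1655 CPM in the double knockout and 3941 CPM in the Apoe KO, or 2.38-fold lower (2.04 to 2.79). In modEC cluster 8 Eln stood at 1688 and 2662 CPM, a ratio of 0.634 (0.566 to 0.708), and in modEC cluster 10 at 887 and 1366 CPM, a ratio of 0.650 (0.490 to 0.847). The cells of modEC cluster 10 were unlike between the libraries in marker genes. Ibsp stood at 15.0 CPM in the double knockout and 13259 CPM in the Apoe KO, Col2a1 at 15.0 and 5901 CPM, and Tagln at 14665 and 5894 CPM. The part of these unlike cells in the Eln ratio was not tested. Among cells with at least 2000 UMIs the modEC cluster 8 ratio was 0.740 (0.635 to 0.857), outside the size rule, and that of modEC cluster 10 was 0.324 (0.0082 to 1.81), too wide to call. EC cluster 9 came below the size rule, at 1013 and 1318 CPM and a ratio of 0.769 (0.652 to 0.906). The cells of cluster 7 named modEC stood at 1422 CPM in the double knockout and 3546 CPM in the Apoe KO, a ratio of 0.401 (0.366 to 0.439). Eln was the same in both libraries in immune/inflam cluster 13 within counting error, at 676 and 651 CPM, a ratio of 1.04 (0.708 to 1.48).

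The order of the Eln level was also read across populations within each library. In the double knockout modEC cluster 8 (1514 to 1876 CPM), the fibroblast class (1420.4 to 1916 CPM) and modEC cluster 7 (1310.2 to 1541 CPM) came first and overlapped in their intervals, followed by EC cluster 9, SMC and modEC cluster 10, which overlapped as well. In the Apoe KO the order ran from the fibroblast class through modEC clusters 7 and 8 to SMC, modEC cluster 10 and EC cluster 9, and only the last 2 overlapped. SMC cells held 76.9% of all Eln UMIs of the double knockout and 56.5% of those of the Apoe KO, and modEC cells held 15.4% and 30.4%. The whole-library ratio therefore joins the level per population with the mix of cells, which differed between the libraries.

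The lower Eln level was spread over the smooth muscle clusters. Of 11 SMC clusters with at least 50 cells in each library, 10 had an Eln ratio below 1, and 9.64% of 8924 genes were below 1 in at least 10 of the 11 clusters. The cluster ratios ran from 0.465 in cluster 3 to 1.04 in cluster 11, with a median of 0.577. Cluster 3 stood at 654 CPM in the double knockout and 1405 CPM in the Apoe KO, and cluster 11 at 1151 and 1109.8 CPM. Cluster 12 had the highest Eln level in both libraries, at 2139.7 and 2694 CPM, and a ratio of 0.794 (0.728 to 0.867). The next lowest were clusters 4, 1 and 0, at 0.479, 0.482 and 0.493, and clusters 11 and 12 were the nearest to 1.

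**Figure D2:**
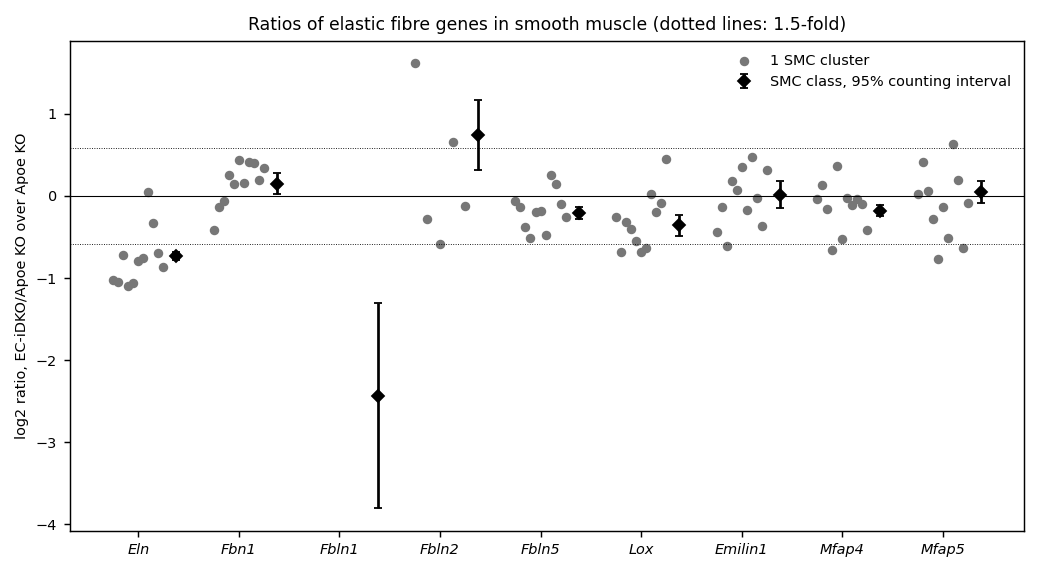
Log2 ratio of the EC-iDKO/Apoe KO over the Apoe KO library (vertical axis) for each elastic fibre gene (horizontal axis) in the smooth muscle cells, pooled with its 95% counting interval and as 1 dot for each smooth muscle cluster with 20 or more UMIs of the gene and UMIs in both libraries. The Eln dots lie below 0 in 10 of 11 clusters, while Fbn1 lies above 0 in 8 of 11.

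Because the double knockout cells were read less deeply, the SMC level was also taken within bands of UMIs per cell. The double knockout stood at 958, 984, 868 and 1108 CPM of Eln in cells with under 1000, 1000 to 2000, 2000 to 4000 and 4000 to 8000 UMIs. The Apoe KO stood at 1437, 1898, 2072 and 1489 CPM in the same bands. The double knockout was lower in each of the 4 bands, with intervals that did not overlap, and the gap was smallest from 4000 to 8000 UMIs. That band held 169 double knockout and 422 Apoe KO cells, and the shallowest held 2848 and 95. At 8000 UMIs and over there were 1 double knockout and 427 Apoe KO cells, and the Apoe KO cells stood at 1515 CPM. Thinned to 1000 UMIs per cell, Eln was seen in 54.9% (52.4 to 57.5) of 1500 SMC cells of the double knockout and 72.8% (70.4 to 75.1) of 1421 of the Apoe KO; without thinning, the shares were 53.8% and 94.5%. For comparison, thinned cells of cluster 13 gave 46.7% (21.3 to 73.4) of 15 cells and 38.8% (30.7 to 47.5) of 139 cells, at median depths before thinning of 1174 and 4783 UMIs. The SMC share in the double knockout thus lay inside the wide interval of that background, whereas in the Apoe KO it lay above it. Over all UMIs, Eln in cluster 13 stood below SMC beyond counting error in both libraries. It was 0.707 times (0.486 to 0.994) the SMC level in the double knockout and 0.410 times (0.376 to 0.446) in the Apoe KO.

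**Figure D3:**
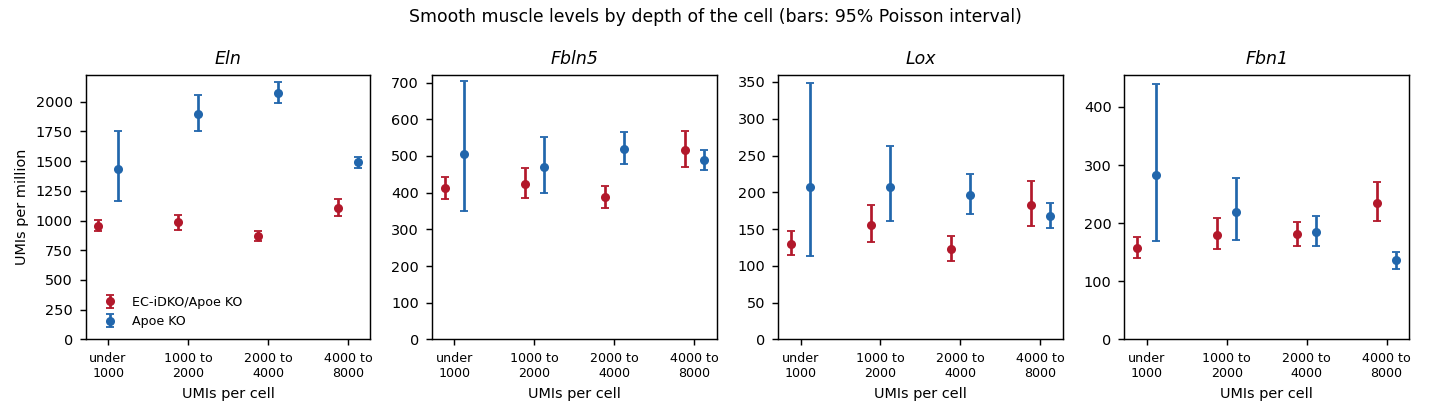
Level in smooth muscle cells (vertical axes, CPM, each with its 95% Poisson interval) of elastic fibre genes in 4 bands of UMIs per cell (horizontal axes; cells of 8000 UMIs and over are not drawn), for the EC-iDKO/Apoe KO and the Apoe KO library. For Eln the double knockout stayed between 868 and 1108 CPM and the Apoe KO between 1437 and 2072 CPM.

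Of the microfibril genes, Fbn1 (chr2:125300594-125507993, minus strand), which encodes fibrillin-1, differed little. It stood at 190.4 CPM in the double knockout and 196 CPM in the Apoe KO over the whole libraries, a ratio of 0.971 (0.908 to 1.04), and at 180.0 and 162 CPM in SMC, a ratio of 1.11 (1.02 to 1.21). Its ratio was below 1 in 3 of the 11 SMC clusters, where that of Eln was below 1 in 10. In modEC cluster 8 it was higher than in SMC in both libraries, at 412 and 409.8 CPM, with a ratio of 1.01 (0.791 to 1.26) between them. Within the same 4 depth bands, from under 1000 to 4000 to 8000 UMIs, Fbn1 in SMC stood at 157, 180.4, 181 and 235 CPM in the double knockout and at 282, 219.5, 185 and 136 CPM in the Apoe KO. The double knockout was lower in value in the first 2 bands, close to the Apoe KO in the third and higher in the last, where the intervals did not overlap. The cells of 8000 UMIs and over gave 760 of the Fbn1 UMIs of the Apoe KO, at 165 CPM (154 to 178), and 0 in the double knockout, which had 1 such cell, so the pooled ratio sets cells of unlike depth against each other.

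Mfap4 (chr11:61485431-61488900, plus strand) encodes a microfibril-associated glycoprotein that binds elastin and collagen. In SMC it stood at 548 CPM in the double knockout and 621 CPM in the Apoe KO, a ratio of 0.883 (0.844 to 0.923), below the size rule. The ratio was 1.12 (1.02 to 1.23) among cells with 1000 to 4000 UMIs, so its side of 1 depended on which cells were kept. Cluster 17 was its highest SMC cluster in both libraries, at 1167 and 1559 CPM, and its ratios over the 11 clusters ran from 0.634 in cluster 3 to 1.28 in cluster 4. Mfap4 was the member that was lower in modEC cluster 8 than in SMC within each library, at 0.510 times (0.385 to 0.663) the SMC level in the double knockout and 0.555 times (0.506 to 0.607) in the Apoe KO. In modEC cluster 10 it had 40 UMIs, or 602 CPM, in the double knockout, against 190 UMIs, or 320.4 CPM, in the Apoe KO, a ratio of 1.88 (1.30 to 2.65). With each cell weighted equally the ratio was 1.43 (0.991 to 2.02, rescaled from the pooled interval), which ended the call. The 602 CPM lay close to the SMC level of the same library, and in cluster 13 of the double knockout Mfap4 stood as high, at 717 CPM (499 to 997) against 203 CPM (175 to 236) in the Apoe KO. The parts of any free smooth muscle RNA and of the unlike marker genes of modEC cluster 10 in its Mfap4 value were not tested.

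Mfap5 (chr6:122505845-122529290, plus strand) encodes the microfibril-associated glycoprotein MAGP-2. Its SMC level was 139.5 CPM in the double knockout and 135 CPM in the Apoe KO, a ratio of 1.03 (0.941 to 1.13). It stood well above SMC in the fibroblast class, at 5.13 times (4.00 to 6.49) the SMC level in the double knockout and 7.62 times (6.88 to 8.44) in the Apoe KO. Between the libraries, it was higher in the double knockout in modEC cluster 8, at 373 and 216 CPM, a ratio of 1.73 (1.33 to 2.22), and in EC cluster 9, at 282 and 172 CPM, a ratio of 1.64 (1.11 to 2.43). With each cell weighted equally these ratios were 1.18 (0.910 to 1.52) and 1.44 (0.983 to 2.14), with rescaled pooled intervals, and neither call held. Thinned to 1000 UMIs, the ratio was 1.11 (0.577 to 2.03) in modEC cluster 8 and 2.44 (1.22 to 5.03) in EC cluster 9. In the fibroblast class Mfap5 stood at 716 CPM in the double knockout and 1030.3 CPM in the Apoe KO, and the ratio of 0.695 (0.540 to 0.883) lay just outside the size rule. Cluster 13 held Mfap5 at 266 CPM (142 to 455) in the double knockout and 84.4 CPM (66.2 to 106) in the Apoe KO, and the part of any free RNA in the EC cluster 9 difference was not tested.

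Fbln1 (chr15:85205949-85286535, plus strand), the gene of fibulin-1, a calcium-binding protein found within the elastin core, had the fewest UMIs of the members. It had 41 UMIs, or 5.98 CPM, in the double knockout, against 372 UMIs, or 28.0 CPM, in the Apoe KO, a ratio of 0.214 (0.151 to 0.296). Thinned to 1000 UMIs per cell, Fbln1 had too few UMIs for a call, at a ratio of 0.222 (0.105 to 0.426). Most of these came from the fibroblast class (26.8% of Fbln1 UMIs in the double knockout and 43.0% in the Apoe KO) and from modEC cells (43.9% and 39.5%). The fibroblast class had 11 and 160 UMIs, at 102 and 294 CPM, a ratio of 0.347 (0.170 to 0.638), which was 0.449 (0.135 to 1.19) after thinning. The libraries did not differ beyond counting error in modEC cluster 8, at 68.7 and 69.7 CPM, a ratio of 0.985 (0.521 to 1.73). SMC cells held 7 UMIs in the double knockout and 59 in the Apoe KO, at 1.28 and 6.89 CPM, which was under the 100 UMIs needed for a call. In the Apoe KO the SMC level was close to the 5.78 CPM of cluster 13 and so within the background there.

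Fbln5 (chr12:101746565-101819055, minus strand) encodes fibulin-5, which binds tropoelastin and integrins and is needed for fibre assembly. SMC stood at 421 CPM in the double knockout and 488 CPM in the Apoe KO, a ratio of 0.864 (0.821 to 0.909), with 9 of 11 clusters below 1 and a range of 0.701 to 1.19. The fibroblast class stood at 1236 and 2035 CPM, a ratio of 0.608 (0.504 to 0.728), and modEC cluster 8 at 608 and 1053 CPM, a ratio of 0.578 (0.477 to 0.694). Among cells of 1000 to 4000 UMIs the modEC cluster 8 ratio was 0.836 (0.577 to 1.19), which ended that call. For EC cluster 9 the ratio was on the other side of 1 without a call, at 600.0 CPM in the double knockout and 483 CPM in the Apoe KO, or 1.24 (0.975 to 1.58). It was 2.04 (1.53 to 2.72) among cells of at least 1000 UMIs with a mitochondrial share under 10%, 2.19 (1.40 to 3.34) among cells of at least 2000 UMIs and 2.11 (1.37 to 3.27) after thinning to 1000 UMIs, but 0.962 (0.755 to 1.23, rescaled from the pooled interval) with each cell weighted equally. Cluster 13 held Fbln5 at 533 CPM in the double knockout and 214 CPM in the Apoe KO. The whole immune/inflam class had a ratio of 2.45 (1.63 to 3.57). The part of RNA of other cell types in the EC cluster 9 values was not tested. EC cluster 19 had 92 UMIs in 67 double knockout cells, or 892 CPM, but only 9 cells and 5 UMIs in the Apoe KO, or 158 CPM, so the 2 values rest on very unequal numbers. Within the double knockout, the level in EC cluster 19 was 2.12 times (1.70 to 2.61) that of SMC, while the contractile markers summed to 7349.5 CPM there against 56086 CPM in SMC. Of cells thinned to 1000 UMIs, 71.4% (55.4 to 84.3) of 42 cells in that cluster held Fbln5, against 3 of 15 cells (4.33% to 48.1%) in cluster 13 of the same library. Unthinned, these shares were 59.7% and 32.1%.

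Fbln1 and Fbln5 were the fibulins called lower in the fibroblast class, so the 250 bases before their start sites are given here from the RefSeq table of GRCm38.p6. They are printed 5′ to 3′ on the gene's strand in lower case. Capitals mark the SMAD box CAGAC or its complement in Fbln1 (chr15:85205699-85205948, plus strand) and the GC box GGGCGG or its complement in Fbln5 (chr12:101819120-101819369, minus strand).
Fbln1: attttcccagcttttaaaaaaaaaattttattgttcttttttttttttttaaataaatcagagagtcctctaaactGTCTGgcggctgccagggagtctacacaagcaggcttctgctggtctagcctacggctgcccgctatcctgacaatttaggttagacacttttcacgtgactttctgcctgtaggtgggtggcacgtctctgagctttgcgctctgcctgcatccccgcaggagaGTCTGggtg
Fbln5: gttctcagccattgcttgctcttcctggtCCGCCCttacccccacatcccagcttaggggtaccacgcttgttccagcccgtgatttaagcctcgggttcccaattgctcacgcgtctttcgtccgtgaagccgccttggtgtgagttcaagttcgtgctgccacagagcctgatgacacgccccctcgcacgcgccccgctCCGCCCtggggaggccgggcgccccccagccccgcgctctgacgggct
Of the 9 members, 5 had a promoter in that table (Fbn1, Fbln1, Fbln2, Fbln5 and Emilin1), and the windows of Fbln1 and Fbln5 overlapped no exon of the GENCODE M21 annotation. The SMAD boxes of Fbln1 began 174 and 9 bases before the start, and the GC boxes of Fbln5 began 221 and 48 bases before it. Across 32851 promoter windows of the same length, read on both strands, 42.2% held a SMAD box, 32.7% a GC box, 12.4% a TATA box (TATAAA), 6.75% an AP-1 site (TGANTCA) and 1.47% a CArG box, and neither window held any of the last 3. Both motifs that were present are common, and a match describes letters only.

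Fbln2 (chr6:91212455-91272540, plus strand) encodes fibulin-2, a partner of fibulin-5 at the internal elastic lamina. It was the member with an endothelial level far above that of smooth muscle. EC cluster 9 stood at 302 CPM in the double knockout and 281 CPM in the Apoe KO, or 17.2 times (12.6 to 23.6) and 26.7 times (19.4 to 36.7) the SMC level of the same library. The ratio between the libraries was 1.08 (0.771 to 1.50) and depended on the cells kept: it was 1.73 (1.15 to 2.58) among cells of at least 1000 UMIs with a mitochondrial share under 10%, 1.91 (1.05 to 3.32) among cells of at least 2000 UMIs and 2.29 (1.44 to 3.64) among cells of 1000 to 4000 UMIs. Cluster 13 did not differ from SMC beyond counting error, with 1 UMI in the double knockout and 5 UMIs in the Apoe KO. Thinned to 1000 UMIs, 25.4% (15.0 to 38.4) of 59 EC cluster 9 cells of the double knockout and 19.1% (11.8 to 28.6) of 94 of the Apoe KO held a Fbln2 UMI, against 1.40% and 1.27% in SMC and 6.67% (0.169 to 31.9) and 1.44% (0.175 to 5.10) in cluster 13. Without thinning the EC cluster 9 shares were 15.0% and 30.2%. Fbln2 thus exceeded its SMC level in EC cluster 9, while the contractile markers stayed below theirs.

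In modEC cluster 8, Fbln2 had 54 UMIs, or 265 CPM, in the double knockout, against 223 UMIs, or 147 CPM, in the Apoe KO, a ratio of 1.81 (1.32 to 2.44). The ratio was 1.78 or more in each setting run, and after thinning it was 3.41 (1.51 to 7.72), on too few UMIs for a call. Of thinned cells there, 25.5% (14.3 to 39.6) of 51 held it in the double knockout and 6.90% (3.61 to 11.7) of 174 in the Apoe KO, with unthinned shares of 20.4% and 33.5%. The 12 endothelial markers of that cluster summed to 304 CPM in the double knockout and 157 CPM in the Apoe KO, with 3 of the 12 at 0 in each, and their part in the Fbln2 difference was not tested. In SMC the call rested on 96 and 90 UMIs, at 17.5 and 10.5 CPM, a ratio of 1.67 (1.24 to 2.25). The ratio was 0.772 (0.426 to 1.43) among cells with 1000 to 4000 UMIs, so the direction turned with the cells kept. EC cells held 38.0% of all Fbln2 UMIs in the double knockout and 16.0% in the Apoe KO, and modEC cells held 29.0% and 63.3%.

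**Figure D4:**
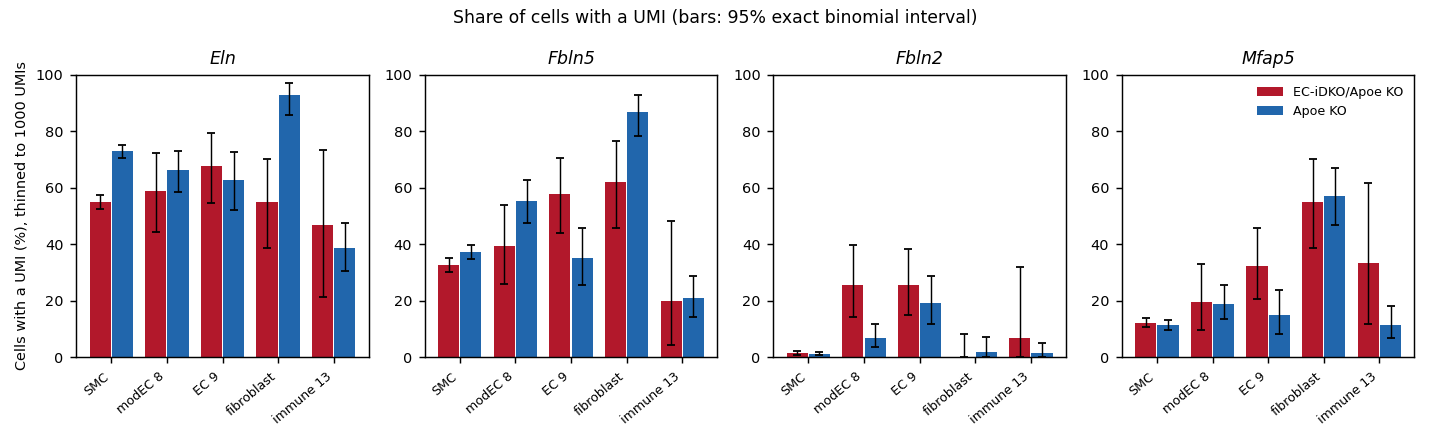
Share of cells with at least 1 UMI of elastic fibre genes (vertical axes, percent) after thinning each cell to 1000 UMIs, by population, for the EC-iDKO/Apoe KO and the Apoe KO library, with 95% Clopper-Pearson intervals. Eln was seen in 54.9% of double knockout and 72.8% of Apoe KO smooth muscle cells. Immune cluster 13 is drawn as a background, and the source of its smooth muscle RNA was not tested.

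Emilin1 (chr5:30913402-30921277, plus strand) encodes a glycoprotein at the interface of elastin and microfibrils that also restrains TGF-beta maturation. It gave no call in any of the 6 populations. SMC stood at 98.8 CPM in the double knockout and 98.0 CPM in the Apoe KO, a ratio of 1.01 (0.904 to 1.13), with 6 of 11 clusters below 1. The values in modEC cluster 8 were 142 and 197 CPM, a ratio of 0.721 (0.475 to 1.06), on 29 and 300 UMIs.

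Lox encodes lysyl oxidase, the copper enzyme that crosslinks elastin and collagen. Over the whole libraries it stood at 159 CPM in the double knockout and 252 CPM in the Apoe KO, a ratio of 0.632 (0.590 to 0.677), and in SMC at 140.4 and 179.6 CPM, a ratio of 0.782 (0.716 to 0.853), below the size rule. The call over the whole libraries was therefore not met in smooth muscle, and it was lost when cells were thinned to 1000 UMIs, at a ratio of 0.690. In both libraries the level in modEC cluster 8 was well above that in SMC, 2.76 times (2.16 to 3.48) in the double knockout and 3.82 times (3.53 to 4.14) in the Apoe KO. That cluster stood at 388 and 686 CPM, a ratio of 0.565 (0.444 to 0.711), which was 0.731 (0.533 to 0.979) among cells with at least 2000 UMIs and 0.292 (0.159 to 0.500) among cells with 1000 to 4000 UMIs, and it held 7.23% of all Lox UMIs in the double knockout and 31.1% in the Apoe KO. In SMC cluster 17 Lox was higher in the double knockout, at 342 and 250.3 CPM, a ratio of 1.37 (1.01 to 1.85), while 9 of the 11 clusters were below 1.

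SMC cluster 17 was high for most members. Fbn1, Fbln2, Fbln5, Lox, Emilin1, Mfap4 and Mfap5 had their highest SMC level there in both libraries, whereas Eln peaked in cluster 12. For Fbln2 this rank rests on few UMIs. It stood at 33.7 CPM in the double knockout and 36.6 CPM in the Apoe KO in cluster 17, where 3 UMIs equal 14.5 and 6.11 CPM. The cluster held 71 double knockout and 51 Apoe KO cells and was deeper than SMC as a whole, with a median of 3012 and 9038 UMIs per cell.

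Further genes of the elastic fibre were read from lists of partners, proteases, TGF-beta components and collagens. Of 20 partners, 17 were in the table and 12 reached 100 UMIs in SMC, with 2 called higher (9.37% of all genes there) and 3 lower (6.56%) and a median log2 ratio of -0.19. Fbln7, the gene of fibulin-7, stood at 22.6 CPM in the double knockout and 11.9 CPM in the Apoe KO, a ratio of 1.90 (1.45 to 2.49), and Atp7a, the copper pump that loads lysyl oxidases, at 17.3 and 11.3 CPM, a ratio of 1.53 (1.14 to 2.05). Ltbp4, the latent TGF-beta binding protein that helps fibulin-5 assemble elastin, stood at 271 and 438 CPM, a ratio of 0.618 (0.582 to 0.657). Adamtsl4, an ADAMTS-like protein of microfibrils, had a ratio of 0.662 (0.443 to 0.973), and Loxl1, a lysyl oxidase needed to renew elastic fibres, stood at 156 and 236 CPM, a ratio of 0.663 (0.611 to 0.718).

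Of 10 elastin-degrading proteases and inhibitors in SMC, 1 was called higher and 4 lower, where 9.37% of all genes were called higher and 6.56% lower. Timp1, a secreted inhibitor of matrix metalloproteinases, stood at 41.9 CPM in the double knockout and 21.1 CPM in the Apoe KO, a ratio of 1.98 (1.63 to 2.42). The inhibitor Serpina3n stood at 8.21 and 22.8 CPM, a ratio of 0.360 (0.255 to 0.501), and the proteases Mmp2, Mmp14 and Ctsk had ratios of 0.497 (0.385 to 0.637), 0.589 (0.474 to 0.729) and 0.592 (0.414 to 0.834). Loxl1 and Ctsk were named after their values were seen. Of 16 genes of the TGF-beta axis, which microfibrils hold in latent form, Tgfb1 was higher, at 53.1 and 12.7 CPM and a ratio of 4.17 (3.33 to 5.25), and Tgfb3 lower, at 54.5 and 93.6 CPM and a ratio of 0.582 (0.508 to 0.666). Of 10 fibrillar collagens and proteoglycans, 0 were called higher and 3 lower: Lum at a ratio of 0.174 (0.137 to 0.218), Dcn at 0.180 (0.146 to 0.220) and Col1a1 at 0.659 (0.627 to 0.691). None of the 9 contractile markers was called in SMC in either direction, with a median log2 ratio of -0.01.

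The same lists gave more calls in modEC cluster 8, where 11.4% of all genes were called higher and 10.9% lower. Of 10 collagens and proteoglycans, 9 were called lower and 0 higher, with a median log2 ratio of -1.43 against -0.30 for the 9 members. Col1a1 stood at 878 CPM in the double knockout and 8127 CPM in the Apoe KO, a ratio of 0.108 (0.0927 to 0.125), and Col3a1, Lum and Col1a2 had ratios of 0.221, 0.228 and 0.231. Of 8 partners there, Ltbp4 was called higher, at a ratio of 1.52 (1.15 to 1.98), on the other side of 1 from SMC, and Loxl3, Loxl2 and Efemp2 lower, at 0.272, 0.383 and 0.567. Efemp2 encodes fibulin-4, which brings lysyl oxidase to tropoelastin. Of 10 proteases and inhibitors, 1 was higher and 6 lower, Mmp2 among the lower ones at 0.253 (0.158 to 0.387). In the TGF-beta list, Itga8, Tgfbr1 and Itgb1 were called higher, at ratios of 2.09 (1.79 to 2.43), 1.65 (1.08 to 2.45) and 1.60 (1.38 to 1.84). Thbs1 of that list was called lower, at 0.387 (0.306 to 0.484). The chondrocyte-like markers of the cluster, 7 genes, summed to 721 CPM in the double knockout and 8111 CPM in the Apoe KO, with 2 and 0 of them at 0, and the 11 macrophage markers to 14.7 and 571 CPM, with 9 and 0 at 0. These sums moved with the lower Eln, Lox and Fbln5 of that cluster, and their part in it was not tested.

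In the fibroblast class 8 of 9 collagens and proteoglycans were called lower and 0 higher, with Lum at 0.201, Col5a2 at 0.301, Col5a1 at 0.406 and Col3a1 at 0.410, and 1 of 5 partners was lower, Loxl1 at 0.492 (0.306 to 0.757). Of all genes in that class, 11.8% were called higher and 14.8% lower. Rgs5 itself stood at 1636 CPM in the double knockout and 3858 CPM in the Apoe KO, a ratio of 0.424 (0.361 to 0.495). The other pericyte markers did not differ beyond counting error: Kcnj8, Abcc9, Cspg4 and Pdgfrb had ratios of 0.926, 1.08, 0.719 and 0.991, and Notch3 had 1 and 2 UMIs. The lower pericyte sum of that class was thus mainly that of Rgs5. Its part in the lower Eln, Fbln1 and Fbln5 was not tested. In EC cluster 9, 6 of 8 collagens and proteoglycans were called lower, led by Lum at 0.0303 and Dcn at 0.0813, while 0 of 6 members were. Of all genes there, 14.6% were called lower. The macrophage markers of that cluster summed to 51.7 CPM in the double knockout and 2345 CPM in the Apoe KO.

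The members' levels across clusters were also compared with each other and with all genes. Pearson's r was taken on log2(CPM + 10) over 19 clusters of the double knockout and 18 of the Apoe KO with at least 50 cells. The clusters of a library share its preparation and any free RNA in it, so r is a description. Fbn1 and Lox had the closest pattern among the members, with r of 0.88 in the double knockout and 0.91 in the Apoe KO. Fbln2 was the least like Mfap4, with r of -0.61 in the double knockout and -0.09 in the Apoe KO. Eln and Fbln5 were close in the Apoe KO, at 0.86, and less so in the double knockout, at 0.42. The 3 genes most like each member were chosen in the Apoe KO among genes with at least 500 UMIs. For Eln these were Ecm1 (0.82 in the double knockout and 0.88 in the Apoe KO), Pdgfrb (0.70 and 0.88) and F2r (0.56 and 0.87). For Fbln1 they were Lamc3 (0.83 and 0.91), Sfrp2 (0.81 and 0.91) and Adamtsl1 (0.68 and 0.90), and for Mfap4 Hspb6 (0.85 and 0.92), Ccn3 (0.87 and 0.88) and Rarres2 (0.82 and 0.87). Lox was most like the collagen Col3a1 (0.59 and 0.95), and Fbln5 most like F2r (0.40 and 0.95), the gene of the thrombin receptor. Thbs1 was the gene most like Fbln2 (0.71 and 0.83), while its next neighbours, Ereg (0.14 and 0.82) and Hbp1 (-0.30 and 0.79), did not keep a high r in the double knockout.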

How the data were processed

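RNA of digested mouse aortas was counted in 2 libraries, 1 per genotype. The submitters' processing notes name Cell Ranger, Seurat and the mm10 build, with versions not given in the sources used here. Deposited counts are UMIs per cell and gene, not normalized. The mitochondrial ratio that the authors deposited per cell is a fraction, and the class name, cluster number and library name of each cell are deposited values of another kind, neither counts nor levels. Of 10345 deposited entries, 2428 were second copies of Apoe KO barcodes with identical counts, class and cluster, and each barcode was used once. No further filter was set on cells, and doublets were not called. The 3' UMI counts were not divided by gene length, so levels are compared between cells, not between genes.

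For each population, UMIs were added up and expressed per 1000000 (CPM). Intervals are exact at 95% (Poisson for sums, conditional binomial for ratios, Clopper-Pearson for shares) and cover counting error only. With each cell or each cluster weighted equally, the interval of the pooled ratio was rescaled to the new ratio. It is not exact there and does not measure the counting error of that setting. A count of 0 was set to a floor of 3 UMIs over the population for ratios. The rule for calls was tried on counts simulated from the pooled profile of both libraries with known folds. Such counts hold no spread between mice or preparations, so they do not bear on that spread. With 1 library per genotype there was no statistical test. From each list other than the members, the text names up to 4 genes with the largest absolute log2 ratio among those with at least 100 UMIs, except where it says otherwise. A list of 5 mesothelial markers had 0 genes in the table. SMC cluster 15, with 59 double knockout and 20 Apoe KO cells, was left out of the SMC pool. The members and lists were chosen with earlier results of these data known. The analysis used Python 3.11.15, numpy 2.4.6, scipy 1.17.1, pandas 2.3.3 and matplotlib 3.10.9.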

Additional observations from a re-analysis of the deposited data

Results flagged for a closer look

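Mfap4 and Mfap5 had ratios of double knockout over Apoe KO on opposite sides of 1 in different populations, with intervals that did not hold 1. For Mfap4 the ratio was 1.88 (1.30 to 2.65) in modEC cluster 10, 0.883 (0.844 to 0.923) in SMC and 0.722 (0.562 to 0.916) in the class deposited as fibroblast. For Mfap5 it was 1.73 (1.33 to 2.22) in modEC cluster 8, 1.64 (1.11 to 2.43) in EC cluster 9 and 0.695 (0.540 to 0.883) in the class deposited as fibroblast. The difference between populations was not tested, since each ratio rests on the same 2 libraries. Mfap4 in SMC passed above 1 in 2 of the 10 settings tried (range 0.819 to 1.12) and in the class deposited as fibroblast in 1 of 8 (0.578 to 1.27), while Mfap5 stayed on its side of 1 in the settings run for these 3 populations.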

How the results depend on the processing

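Eln stayed below a ratio of 1 in each setting run: 0.465 to 0.581 over the whole libraries, 0.448 to 0.622 in SMC, 0.497 to 0.743 in modEC cluster 8, 0.307 to 0.652 in modEC cluster 10, 0.667 to 0.929 in EC cluster 9 and 0.339 to 0.43 in the class deposited as fibroblast, where members lower were 2 to 4 (2 with a ratio of at least 2, Eln and Fbln1) and members higher 0. Of the ratios recomputed, 340 stayed within the interval of the reported value, 80 left it and 1 that had been called passed to the other side of 1: Fbln2 in SMC, at 0.772 among cells with 1000 to 4000 UMIs, a setting chosen after seeing the data. Of the 52 member ratios, 20 crossed 1 in at least 1 setting, 19 of them uncalled as reported. Mfap4 did so with intervals off 1 on both sides, in SMC (0.883 and 1.12) and over the whole libraries. The counts of members called moved as follows, and the cause was not tested. The share of all genes called was not worked out for these settings, so the counts cannot be set against other genes. With a ratio of at least 2, members lower were 1 over the whole libraries (Fbln1) and 0 in SMC, modEC cluster 8 and modEC cluster 10, and members higher were 0 in those 3 and in EC cluster 9. With cells thinned to 1000 UMIs, 1 was lower over the whole libraries (Eln), and 0 were higher in SMC, modEC cluster 8, modEC cluster 10 and EC cluster 9, where fewer UMIs were left to call: Fbln1 over the whole libraries kept a ratio of 0.222 and Fbln2 in modEC cluster 8 had 3.41. With cells of 1000 to 4000 UMIs, 0 were higher in SMC, modEC cluster 8 and modEC cluster 10. With cells of at least 2000 UMIs, 0 were higher in SMC, and members lower were 1 in modEC cluster 8 (Fbln5), 0 in modEC cluster 10 and 1 in EC cluster 9 (Eln). With cells of at least 1000 UMIs whose mitochondrial share was under 10%, 0 were higher in SMC and 2 in EC cluster 9 (Fbln2 and Fbln5). With each cell weighted equally, members higher were 1 in modEC cluster 8 (Fbln2) and 0 in modEC cluster 10 and EC cluster 9, and members lower were 2 in modEC cluster 10 (Eln and Lox) and 1 in EC cluster 9 (Lox). The intervals behind these equal-weight calls were rescaled from the pooled ratios, so their widths were not computed for that setting. In SMC 2 were lower (Eln and Fbln1) with every deposited entry and with genes from 20 UMIs. With every entry the Apoe KO barcodes count again through their identical copies. Fbln1, with 7 UMIs in the double knockout and 59 in the Apoe KO, reached 100 UMIs only through those copies, so that call is no added evidence. No paired analysis was possible because each genotype had 1 library. Of the 6 populations compared, modEC cluster 10 was the shallowest in the double knockout, where 90 cells held 66487 UMIs and 3 UMIs equal 45.1 CPM.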
